A study of Mus musculus with 4 samples.

Results

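The genes described here encode 10 subunits of the integrins that leukocytes use to adhere: the alpha chains Itgal, Itga4, Itgae, Itgav, Itga6 and Itga2b, and the beta chains Itgb2, Itgb1, Itgb7 and Itgb3. They were taken by name from the 50600 genes of the count tables, with earlier results of these data known. All 10 were found, and all 10 passed the filter on low counts. The mouse integrin family measured here holds 26 subunit genes, 18 alpha and 8 beta, so the set covers 6 of the alpha and 4 of the beta chains. RNA came from primary cells of strain C57BL/6NJ labelled as T-helper 17 cells, the CD4 T cells that make interleukin 17. There were 4 libraries in 1 group, numbered as biological replicates 1 to 4, each with its own biosample record and all with the same donor record. The labels give no control group, genotype, added treatment, age or sex, and they point to a differentiation protocol for CD4 T cells. The assay is labelled as total RNA-seq, while the linked library protocol is named for poly(A)+ RNA. The replicates may share an animal source, and spread between them measures these samples only.

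Integrins are adhesion receptors made of 1 alpha and 1 beta chain, which join inside the cell before they reach its surface. On T cells they are kept in a resting form and are switched on from inside by chemokine or antigen receptor signals, through the GTPase Rap1 and the adaptors talin and kindlin, which bind the beta tail. The beta2 integrin LFA-1, of Itgal and Itgb2, binds ICAM proteins. The alpha4 chain of Itga4 pairs with beta1 as VLA-4, a receptor for VCAM-1 and fibronectin, or with beta7 as the gut homing receptor for MAdCAM-1. The alphaE chain of Itgae, known as CD103, pairs only with beta7 and binds E-cadherin on epithelium.

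The label was checked against marker genes first. All 12 listed T-cell genes reached 1 TPM (a count divided by gene length and scaled to a fixed total per library) in every library, and so did all 12 naive T-cell genes, led by Tcf7, Ccr7 and Il7r. Of 14 Th17 genes 7 did, and the median of that list was 1.06 TPM, against 570.2 TPM for the naive list, so the marker levels went against the label. The file headers name alignments that bear an hour tag of 0 for each of the 4 libraries, whose meaning the labels do not give. The libraries are therefore called by their label only. Total counts lay between 29041979 and 48808978. Markers of other cell types are given beside the genes they bear on.

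The 10 genes spanned more than 3 orders of magnitude and kept nearly the same order in every library. Ordered by mean level they ran Itgb7, Itgb2, Itgal, Itga4, Itgb3, Itga6, Itgb1, Itgav, Itga2b and Itgae. Of the 9 neighbouring pairs in that order, 8 had ranges over libraries that did not overlap. The exception was Itga4 and Itgb3, whose means differed 1.07-fold and whose order was kept in 3 of 4 libraries. With the longest annotated transcript in place of all exons, Itga6 moved above Itga4 and Itgb3, at 191 against 183 and 121 TPM, and the other genes kept their order. No control group exists, so these levels are a description and carry no test. In bulk RNA a gene used by few cells and a gene used weakly by all cells cannot be told apart.

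**Figure D1:**
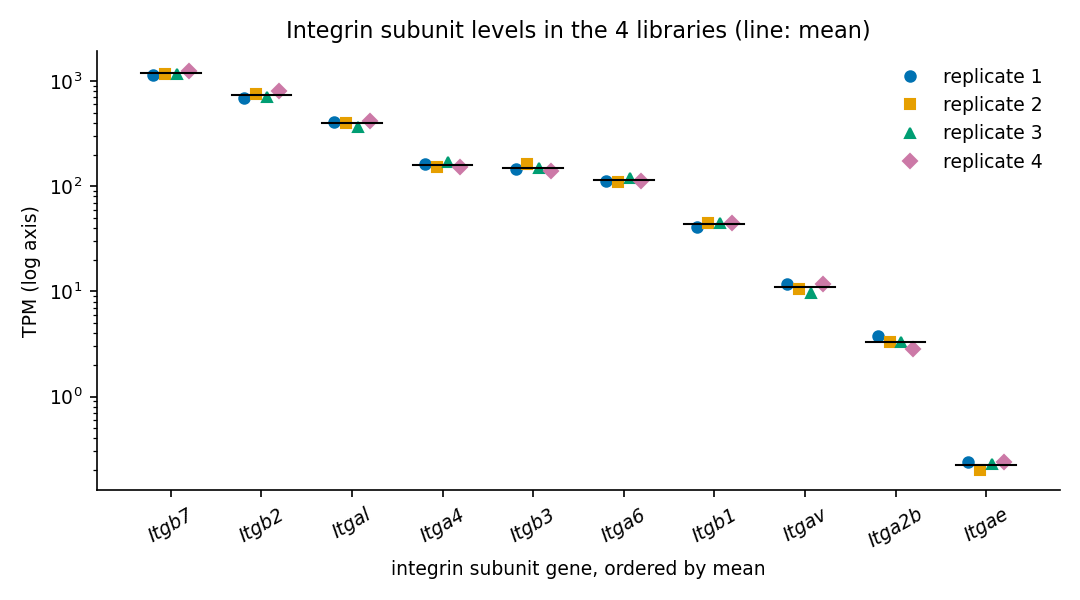
TPM on a log axis of the 10 integrin subunit genes in each of the 4 libraries, with 1 marker per replicate and a line at the mean of 4. Itgb7 lies highest, at 1154 to 1254 TPM, Itgae lowest, at 0.198 to 0.236 TPM, and the markers of each gene lie close together.

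The beta2 pair was abundant on both sides. Itgal, which encodes the alphaL chain CD11a (ENSMUSG00000030830, mm10 chromosome 7, 127296260 to 127335138, plus strand), measured 404, 399, 363 and 415 TPM, here and below in the order of replicates 1 to 4, with a mean of 395 ± 22.4 (SD, n = 4). Replicate 3 was lowest and replicate 4 highest. Itgb2, which encodes the shared CD18 chain (ENSMUSG00000000290, chromosome 10, 77530252 to 77565708, plus strand), was at 688, 751, 713 and 804 TPM, a mean of 739 ± 50.2. Replicate 4 was again highest, and replicate 1 was lowest. The beta chain exceeded its alpha partner in every library, with a log2 ratio of Itgal over Itgb2 of -0.90 ± 0.09 (SD, n = 4). An exact sign-flip permutation test of 4 libraries cannot go below p = 0.13. This pair gave that value, as did each of the 12 pairs compared, so the adjusted p was 0.13 for each and none passed the threshold of 0.05. The direction of this pair rests on the correction for length: CPM without it put Itgal above Itgb2, at a log2 ratio of 0.20.

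The other alpha chains that pair with beta2 were scarce. Itgam, the alphaM chain of the myeloid integrin Mac-1, was at 1.61 ± 0.224 TPM, Itgad at 0.301 ± 0.128 TPM and Itgax, the CD11c chain, at 0.237 ± 0.0648 TPM. The summed level of the 4 alpha partners was 397 ± 22.7 TPM, nearly all of it Itgal. Itgb2 was 1.86 ± 0.116 times that sum, and the ratio lay between 1.69 and 1.95 in single libraries. Of 12 monocyte or macrophage markers, a list that also holds Itgam, 5 reached 1 TPM in every library, Itgam among them. They were led by Ctss, a protease gene that T cells also use, at 479 ± 24.0 TPM, and Cd68 at 11.1 ± 2.81 TPM. The summed level of that list ran from 477 to 521 TPM, nearly all of it Ctss. Cd14 and Fcgr1 had 0 counts in every library. Of 10 granulocyte markers 0 reached 1 TPM, and their sum was at most 0.879 TPM. The part of other cells in the levels of Itgb2 was not tested.

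Among the chains of the alpha4 and beta7 receptors the beta7 gene stood far above its partners. Itgb7 (ENSMUSG00000001281, chromosome 15, 102215995 to 102231935, minus strand) measured 1154, 1159.5, 1165 and 1254 TPM, a mean of 1183 ± 47.8 (SD, n = 4). Replicate 4 was the high library, and the other 3 lay close together. The mean ranked above 99.7% of the 21751 nuclear protein-coding genes. Itga4, which encodes the alpha4 chain CD49d (ENSMUSG00000027009, chromosome 2, 79255426 to 79333123, plus strand), was at 164, 154, 170.0 and 152 TPM, a mean of 160.2 ± 8.53. Itgb1, the beta1 chain CD29 that most tissues use (ENSMUSG00000025809, chromosome 8, 128685654 to 128733200, plus strand), was at 40.9, 44.4, 44.9 and 45.0 TPM, a mean of 43.8 ± 1.96. Replicate 1 was the low library for Itgb1.

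The 2 beta chains that compete for alpha4 thus differed widely at the RNA level. Itgb7 was 27.0-fold above Itgb1, at a log2 ratio of 4.75 ± 0.06, and was the higher gene in 4 of 4 libraries (exact sign-flip permutation adjusted p = 0.13). Itga4 lay between them. It was 3.66-fold above Itgb1, at a log2 ratio of 1.87 ± 0.12, and Itgb7 was 7.39-fold above Itga4, at a log2 ratio of Itga4 over Itgb7 of -2.88 ± 0.12. Both directions were shared by all 4 libraries, but both sizes depend on the correction for length. On the CPM scale without it the log2 ratios were 3.64 for Itga4 over Itgb1 and -0.54 for Itga4 over Itgb7. RNA levels do not give the amount of assembled receptor.

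The promoters of these 3 genes are shown because alpha4 can join either beta chain and the beta genes lay so far apart. Each sequence is the 250 bases before the RefSeq start (GRCm38.p6, read 5′ to 3′ on the gene's strand), and capitals mark matches to the motifs searched on both strands. These were TATAAA, the ETS motif GGAAGT, the RUNX motif TGTGGT and the GC box GGGCGG. The shorter ETS core GGAA was not searched. The windows are chr2:79255176-79255425 on the plus strand for Itga4, chr8:128685404-128685653 on the plus strand for Itgb1 and chr15:102231936-102232185 on the minus strand for Itgb7. Each RefSeq start lay at the deposited gene's own 5′ end.
Itga4: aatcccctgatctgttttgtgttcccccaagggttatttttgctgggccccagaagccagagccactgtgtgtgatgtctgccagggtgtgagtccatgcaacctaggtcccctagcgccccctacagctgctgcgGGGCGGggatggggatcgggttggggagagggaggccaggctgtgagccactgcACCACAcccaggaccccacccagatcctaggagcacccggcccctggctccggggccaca
Itgb1: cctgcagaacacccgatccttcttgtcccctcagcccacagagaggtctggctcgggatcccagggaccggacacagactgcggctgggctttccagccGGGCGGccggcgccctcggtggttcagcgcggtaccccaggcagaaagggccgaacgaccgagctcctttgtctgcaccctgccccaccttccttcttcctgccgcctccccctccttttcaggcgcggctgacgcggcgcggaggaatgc
Itgb7: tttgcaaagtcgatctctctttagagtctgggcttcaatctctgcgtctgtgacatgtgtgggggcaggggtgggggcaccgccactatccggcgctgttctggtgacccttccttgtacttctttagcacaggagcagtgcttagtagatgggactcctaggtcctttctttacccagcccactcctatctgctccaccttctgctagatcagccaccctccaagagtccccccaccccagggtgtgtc

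Itgb1 had a CpG-rich window, with 21 CpG sites and 68.0% G and C, and held 1 GC box. The less CpG-rich Itgb7 window had 5 CpG sites and 56.0% G and C, and held no match to the 4 motifs. Itga4 had 6 CpG sites, 1 GC box and 1 RUNX motif. Over 32851 promoter windows of the same length the median was 6 CpG sites. A GC box was found in 32.7% of them, the ETS motif in 19.7%, the RUNX motif in 14.0% and TATAAA in 12.4%. The GC box and RUNX motif of Itga4 did not overlap. A match is a run of letters, not a shown binding site. Of the other integrin genes, Itgav held 18 CpG sites and 2 ETS motifs. Itga2b held 2 CpG sites and 1 ETS motif, its RefSeq start lying 239 bases from the deposited 5′ end. RefSeq promoters were matched for 5 of the 10 genes.

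Itgae was near the limit of detection. The gene (ENSMUSG00000005947, chromosome 11, 73090583 to 73147446, plus strand) had 9, 9, 15 and 14 counts, or 0.236, 0.198, 0.230 and 0.236 TPM, a mean of 0.225 ± 0.0184 (SD, n = 4). Replicate 2 was the low library. A count of 3, taken here as the limit that a count of 0 allows, would have given between 0.0461 and 0.0786 TPM, so the gene was above it in each library. Itga4, the other alpha partner of beta7, was 712-fold higher, at a log2 ratio of Itgae over Itga4 of -8.95 ± 0.09. That ratio, which rests on 47 counts of Itgae, depends on the pseudocount. With 1 in place of 0.1 it was -7.04, and on the CPM scale without length correction it was -10.66. The log2 ratio of Itgae over Itgb7, -11.83 ± 0.08, likewise became -9.92 and -11.20. The order of the chains was shared by 4 of 4 libraries (exact sign-flip permutation adjusted p = 0.13).

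Regulatory T cells, CD8 T cells, mast cells and some dendritic cells are known users of alphaE, so their markers were read beside Itgae. Of 10 regulatory T-cell genes 8 reached 1 TPM in every library, among them Foxp3 at 3.82 ± 0.406 TPM, Izumo1r at 153 ± 2.27 TPM and Tnfrsf18 at 92.7 ± 9.61 TPM. The sum of that list ran from 310.3 to 337 TPM, most of it Izumo1r and Tnfrsf18, while its median was 7.94 TPM. Ikzf2 was at a mean of 1.27 TPM. Nrp1, at a mean of 0.903 TPM, and Lrrc32, at 0.261 TPM, did not reach 1 TPM in every library. Of 10 CD8 T-cell genes 4 did, with Prf1 at 65.1 ± 7.28 TPM and Cd8b1 at 42.9 ± 2.88 TPM, while Cd8a had 23 counts and Klrg1 had 0. The sum of the CD8 list ran from 112 to 124 TPM. Of 12 mast-cell genes 0 did, and 8 of them, among them Fcer1a and Ms4a2, had 0 counts. Of 10 dendritic-cell genes, a list that also holds Itgax, 1 did, Cd74 at 7.79 ± 1.64 TPM, with H2-Aa at 0.930 ± 0.210 TPM and Xcr1 and Clec9a at 0 counts. The sum of that list ran from 8.40 to 13.2 TPM. The part of these cells in the level of Itgae was not tested.

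Itga6 was the second partner of beta1 at a high level. It encodes the alpha6 chain of the laminin receptor VLA-6 (ENSMUSG00000027111, chromosome 2, 71745616 to 71858416, plus strand) and was at 113, 109.6, 121 and 113 TPM, a mean of 114 ± 4.99 (SD, n = 4). Replicate 3 was highest. Itga6 was 2.61-fold above Itgb1, at a log2 ratio of 1.38 ± 0.08 in 4 of 4 libraries. That ratio was 2.35 with the longest annotated transcript in place of all exons and 2.53 on the CPM scale without length correction. Itga4 was 1.4-fold above Itga6, at a log2 ratio of 0.49 ± 0.05, also in 4 of 4. It was 1.12 on the CPM scale. With the longest transcript its direction turned, to -0.06, because the longest Itga6 transcript, of 4310 bases, covers less than the 9025 bases of all its exons.

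The 12 alpha chains known to pair with beta1 summed to 313 ± 11.6 TPM. Itgb1 was only 0.140 ± 0.00876 of that sum, and between 0.129 and 0.147 in single libraries. Some of these chains have other beta partners: alpha4 can also join beta7, alphaV several beta chains and alpha6 the beta4 chain, whose gene Itgb4 had 9 counts. Within this pool Itga5, which encodes the fibronectin receptor chain alpha5, was at 9.22 ± 1.42 TPM, with replicates 1 and 2 at 10.5 and 10.4 TPM and replicates 3 and 4 at 8.01 and 7.98 TPM. Itga10 was at 6.79 ± 1.83, the laminin receptor chain gene Itga7 at 6.14 ± 1.22, Itga3 at 4.03 ± 0.515, Itga2 at 1.07 ± 0.182 and Itga9 at 0.807 ± 0.0854 TPM. Itga1 and Itga11, which encode collagen receptor chains, had 0 counts throughout. A count of 0 allows up to 0.0702 TPM of either gene in the shallowest library.

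The beta3 family showed the reverse balance, with an abundant beta gene and scarce alpha partners. Itgb3 (ENSMUSG00000020689, chromosome 11, 104608000 to 104670476, plus strand), which encodes the beta chain of the platelet fibrinogen receptor and of the vitronectin receptor, was at 147, 161, 149.6 and 140.2 TPM, a mean of 149 ± 8.53 (SD, n = 4). Replicate 2 was highest and replicate 4 lowest. Itgav, the alphaV chain of several vitronectin and latent TGF-beta receptors (ENSMUSG00000027087, chromosome 2, 83724397 to 83806916, plus strand), was at 11.7, 10.6, 9.73 and 11.7 TPM, a mean of 10.9 ± 0.956. Itga2b, the alphaIIb chain (ENSMUSG00000034664, chromosome 11, 102453297 to 102470122, minus strand), measured 3.79, 3.27, 3.28 and 2.85 TPM, a mean of 3.30 ± 0.383. Replicate 1 was its highest library and replicate 4 its lowest.

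Itgb3 was 13.7-fold above Itgav and 45.3-fold above Itga2b. The log2 ratios of alpha over beta were -3.76 ± 0.18 and -5.47 ± 0.16 (SD, n = 4), each in 4 of 4 libraries (exact sign-flip permutation adjusted p = 0.13). Both partners together summed to 14.2 ± 1.04 TPM, and Itgb3 was 10.6 ± 1.15 times that sum. Itgav exceeded Itga2b at a log2 ratio of 1.70 ± 0.21. It lay below Itgb1, its other listed partner, at -2.0 ± 0.17. With the longest annotated transcript the ratio was -4.84 for Itga2b over Itgb3 and -3.19 for Itgav over Itgb3. On the CPM scale without length correction it was -2.91 for Itgav over Itgb3, 2.69 for Itgav over Itga2b and -0.61 for Itgav over Itgb1. The beta5, beta6 and beta8 genes, whose chains also join alphaV, were near absent, with 0 counts of Itgb5, 1 of Itgb6 and 4 of Itgb8 over the 4 libraries.

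Because Itgb3 and Itga2b are textbook platelet genes, the platelet and megakaryocyte markers were read beside them. Of the 12 markers that are not integrin genes, 0 reached 1 TPM, and their sum ran from 0.352 to 1.01 TPM. The defining genes Pf4, Ppbp, Gp1ba, Gp1bb, Gp6, Gp9 and Treml1 had 0 counts in every library. Those counts stood beside 39899 counts of Itgb3 and 804 of Itga2b over the 4 libraries.

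**Figure D2:**
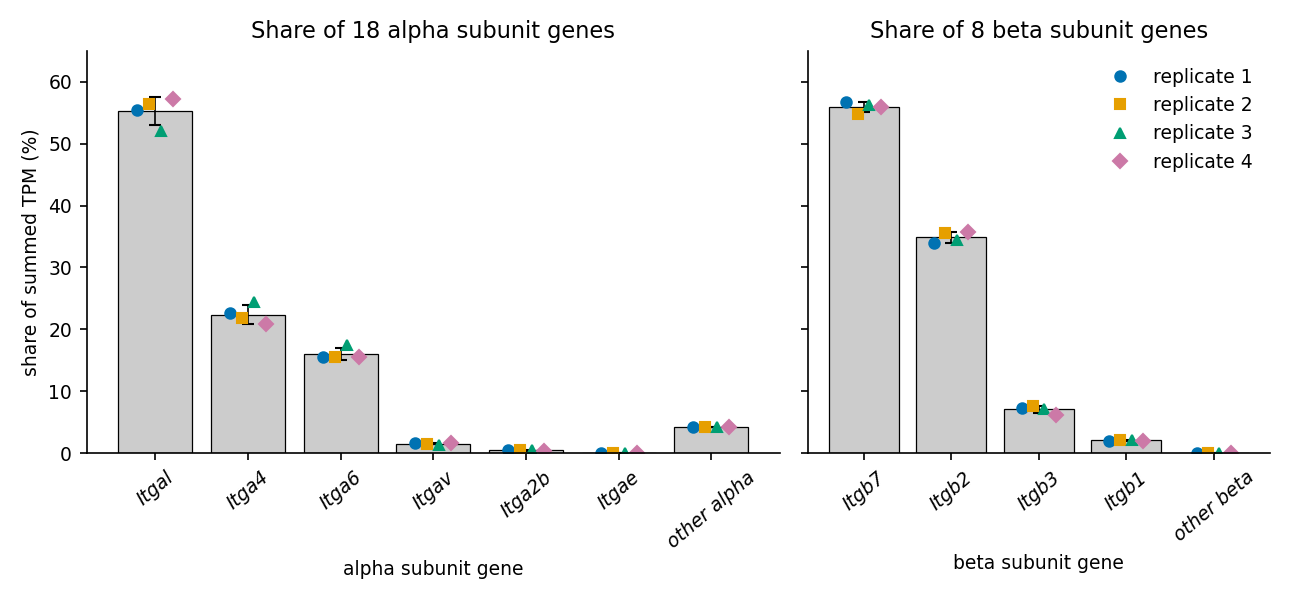
Share in percent of the summed TPM of all 18 alpha genes (left) and all 8 beta genes (right) that each gene held, as bars at the mean with SD over 4 libraries and 1 marker per replicate. Itgal held 55.3% of the alpha sum and Itgb7 55.9% of the beta sum, and the alpha genes outside the set together held 4.23%.

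Set against the whole family, 6 alpha and 4 beta genes held nearly all integrin RNA. The 18 alpha genes summed to 714 ± 15.0 TPM. Itgal held 55.3% ± 2.22 of it (SD, n = 4), Itga4 22.4% ± 1.48, Itga6 16% ± 0.937, Itgav 1.53% ± 0.103, Itga2b 0.461% ± 0.0527 and Itgae 0.0315% ± 0.00236. The 12 other alpha genes together held 4.23% ± 0.0639. Among them Itga5 at 1.29%, Itga10 at 0.948%, Itga7 at 0.860% and Itga3 at 0.564% each held more than Itga2b or Itgae. The 8 beta genes summed to 2115 ± 92.3 TPM, 2.96 ± 0.124 times the alpha sum. Itgb7 held 55.9% ± 0.844 of it, Itgb2 34.9% ± 0.900, Itgb3 7.08% ± 0.579 and Itgb1 2.07% ± 0.0762. The other 4 beta genes had 14 counts over all libraries. Of the 16 integrin genes outside the set 5 reached 1 TPM in every library, against 9 of the 10 described here. The set was chosen with earlier results known, so this contrast is a description. Here and for the lists below, the share of all genes at 1 TPM in every library was not computed. As a guide, the mean of Itga2, 1.07 TPM, ranked above 53.5% of the nuclear protein-coding genes.

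**Figure D3:**
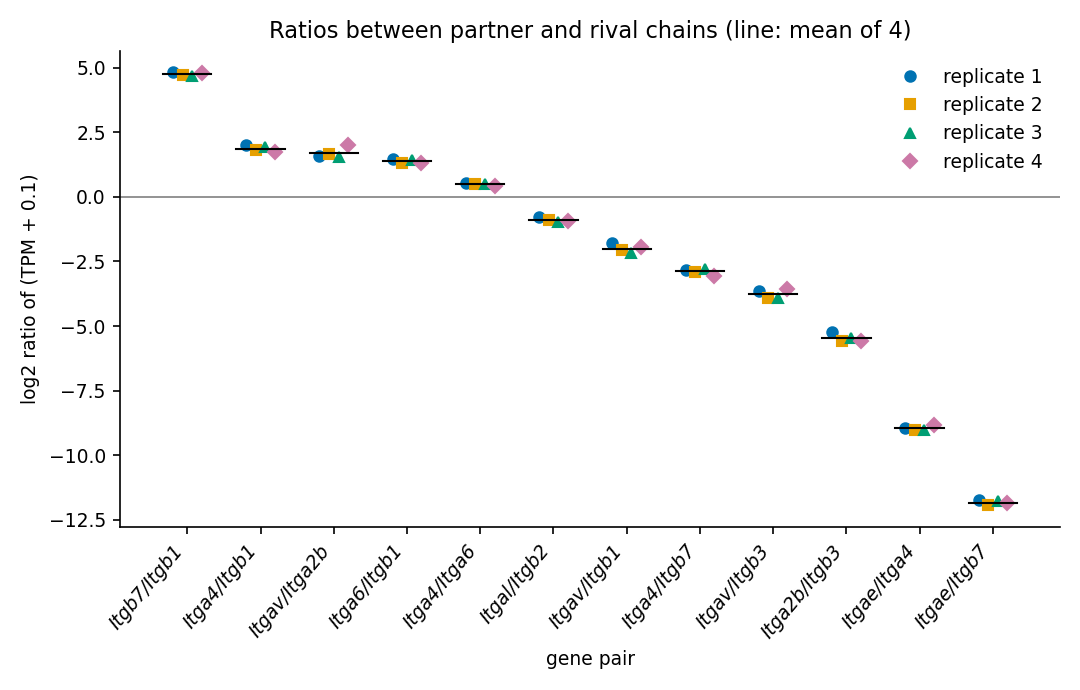
Log2 ratio of (TPM + 0.1) for the 12 gene pairs in each of the 4 libraries, with a line at the mean and a grey line at equal levels. All 4 markers of each pair lie on the same side of the grey line, from 4.75 for Itgb7 over Itgb1 down to -11.83 for Itgae over Itgb7.

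The replicates differed little in these genes. With library sizes scaled by the TMM method, the ratio of the highest to the lowest library ran from 1.12 for Itgb7 and Itgb3 to 1.29 for Itga2b. Its median over the 10 genes was 1.14, beside 1.19 over the 12464 genes tested and 1.15 over the 9306 of these at a mean of 5 CPM (reads scaled to a common library total) or more. An F test of each gene's quasi-likelihood dispersion against the abundance trend was computed from the edgeR fit. It called 0 of the 10 genes more variable between libraries (adjusted p from 0.995 to 0.999), where 0.193% of all genes tested were called. That background was 24 genes, and it moved to 86 without replicate 4, 13 without replicate 2, 7 without replicate 3 and 349 with no filter, while the integrin genes called numbered 0 in each. At an unadjusted p below 0.05 it was 0 of 10, beside 5.34% of all genes, and the smallest unadjusted p was 0.202, for Itgb2. DESeq2 named 0 of the 10 as dispersion outliers, beside 0.866% of all genes. Replicate 4 held the highest TPM of 6 of the 10 genes, among them Itgal, Itgb2 and Itgb7, and the lowest of 3, namely Itga4, Itgb3 and Itga2b. Some of the 6 were near ties. Itgb1 was at 45.0 TPM against 44.9 TPM in replicate 3. Itgae, at 0.236 TPM, and Itgav, at 11.7 TPM, matched replicate 1 as rounded. The share of all genes highest in replicate 4 was not computed.

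**Figure D4:**
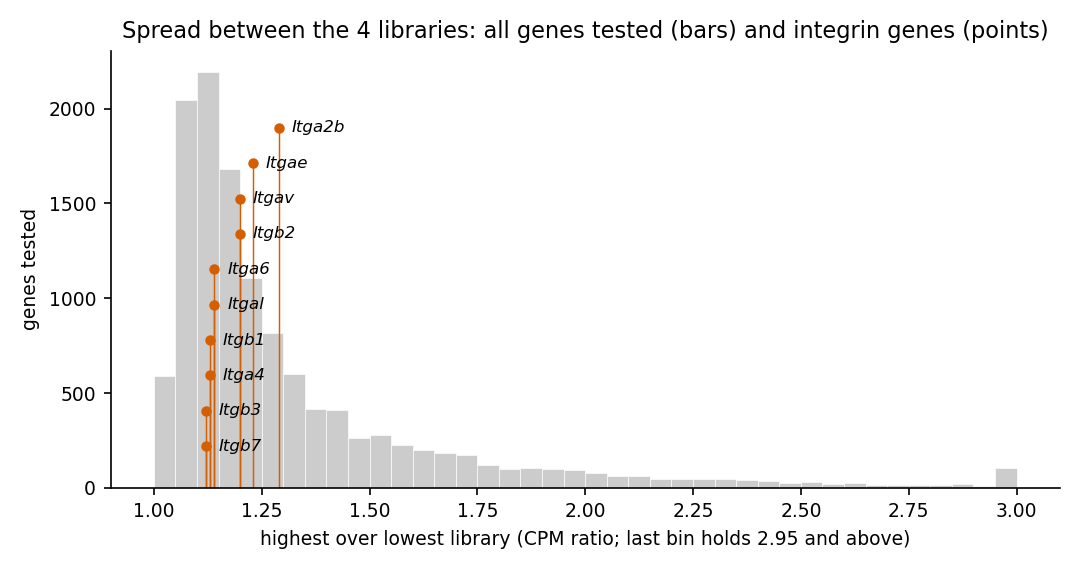
Number of genes tested (grey bars) by the ratio of the highest to the lowest of 4 libraries in CPM, with the 10 integrin genes as labelled points whose height has no meaning. The integrin genes lie between 1.12 and 1.29, and the last bar holds the 103 genes with the widest ratios.

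Itga10 and Itga7, outside the set, varied more. Itga10 was at 5.56, 7.59, 5.02 and 8.98 TPM and Itga7 at 6.82, 4.99, 7.50 and 5.24 TPM. Replicates 2 and 4 were high for Itga10 and low for Itga7. Neither was called (F test on the edgeR fit, adjusted p = 0.687 and 0.885).

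Genes whose products switch integrins on, or hold them in check, were largely present. Of 30 listed activation genes 24 reached 1 TPM in every library, with a median of 132 TPM over the list. Flna, whose product filamin A holds integrin tails in the resting state, was at 842 ± 21.4 TPM (SD, n = 4). The GTPase gene Rap1b was at 621 ± 23.2, Fermt3, for the kindlin of blood cells, at 501 ± 24.9, Rasa3, for a GTPase-activating protein that turns Rap1 off, at 473 ± 17.4, and the kinase gene Stk4 at 449 ± 11.2 TPM. The adaptor gene Fyb was at 430.4 ± 17.6, Tln1, for talin 1, at 415 ± 16 and Rassf5, for the Rap1 effector RAPL, at 394 ± 15.5 TPM. The kindlin genes of other tissues, Fermt1 and Fermt2, had 0 counts in every library, and Tln2 had 11 counts in all, against 184979 counts of Tln1. Of 24 activation genes past the filter 0 were called more variable than the trend, beside 0.193% of all genes tested. At an unadjusted p below 0.05 there were 3, namely Ptpn22, Sipa1 and Rasgrp2, beside 5.34% of all genes tested. Each of these was higher in both replicates 2 and 4 than in replicates 1 and 3, as with Ptpn22 at 85.7, 108, 86.9 and 109 TPM. The share of all genes with that pattern was not computed.

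**Figure D5:**
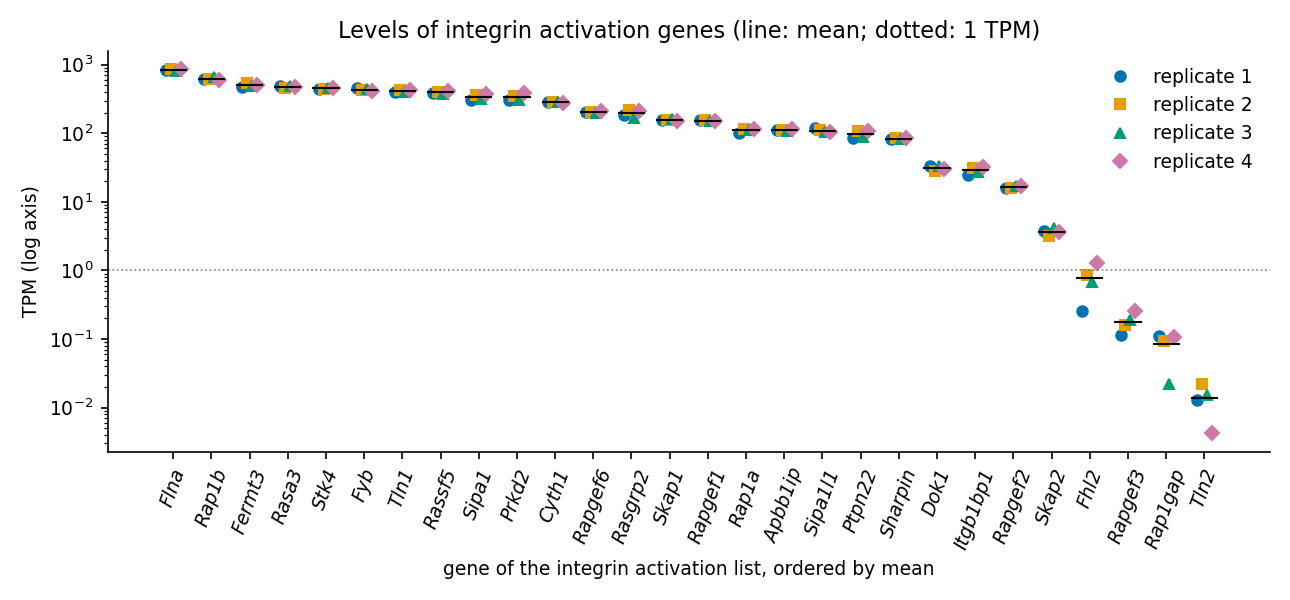
TPM on a log axis of the 28 integrin activation genes with a count in every library, 1 marker per replicate, a line at the mean and a dotted line at 1 TPM. Flna, Rap1b and Fermt3 lie highest, 24 genes lie above the dotted line in every library, and Tln2 lies lowest.

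Genes that act after an integrin is bound were also largely present. Of 25 adhesion signalling genes 20 reached 1 TPM in every library, with a median of 67.2 TPM. Vasp and Actn1, for actin regulators, were at 527 ± 25.4 and 526 ± 10.6 TPM (SD, n = 4), the kinase gene Fyn at 342 ± 7.37 and Actn4 at 159 ± 10.5 TPM. Parvg and Ilk, for the blood-cell parvin and its partner kinase, were at 169.8 ± 3.94 and 156 ± 2.08 TPM, while the parvin genes Parva and Parvb had 0 counts. Ptk2b, for the kinase PYK2, was at 152 ± 3.67 TPM and Nedd9, for a docking protein, at 137 ± 5.73 TPM. None of the 21 past the filter was called by the F test on the edgeR fit, beside 0.193% of all genes tested. At an unadjusted p below 0.05 there was 1, Zyx, beside 5.34% of all genes tested.

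Few ligand genes were present. Of 23 listed ligands 4 reached 1 TPM in every library. Thy1, a T-cell surface protein that also binds integrins, was at 782 ± 22.6 TPM (SD, n = 4). Icam2 and Icam1, for ligands of LFA-1, were at 153 ± 4.68 and 23.8 ± 2.26 TPM. Tgfb1, whose latent form binds alphaV integrins, was at 76.6 ± 4.57 TPM. Among the ligands of the alpha4 receptors, Madcam1 had 0 counts in every library, Vcam1 had 15 over the 4 libraries and Fn1 had 10. Cdh1, for the alphaE ligand E-cadherin, was at 0.655 ± 0.160 TPM.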

How the data were processed

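RNA-seq of 4 libraries of 1 group was analysed from deposited counts of fragments per gene. Per the file headers, the authors counted them with featureCounts 1.4.6-p4 on GENCODE M13 exons (mm10), in pairs, both ends mapped and strand reversed; the command sets nothing for fragments with several alignments. None of the 10 integrin genes shared exon bases with a gene on its own strand. No source used here gives the aligner's version. Gene lengths, an other numeric column of the deposited tables, are the authors' union exon lengths.

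Gene IDs were matched to symbols of GENCODE M21 (50376 of 50600 matched), and 1 listed gene was not matched. TPM was computed from counts and union exon length. The longest annotated transcripts were those of GENCODE M21, while the union exon lengths follow M13. The releases can disagree, as for Itga1, with a longest transcript of 10967 bases against a union length of 5984 bases. Pair ratios on the log2(TPM + 0.1) scale were tested by exact two-sided permutation of their signs, with Benjamini-Hochberg adjustment over 12 pairs. Spread was tested across all genes on fits from edgeR 4.0.16 (TMM, filterByExpr, intercept only, robust) in R 4.3.3. An upper-tail F test, which is not a built-in test of edgeR, set each gene's quasi-likelihood dispersion over the prior trend. It used the largest prior degrees of freedom for all genes, with Benjamini-Hochberg adjustment. DESeq2 1.42.0 was the alternative, and the procedure was tested on simulated data. Total counts were 29041979, 35018552, 48808978 and 45490373 in replicates 1 to 4. A count of 0 was read as up to 3 counts, which covers counting error only. Python 3.11.15 was used elsewhere.

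The genes, lists, pairs and tests were chosen with earlier results of these data known. Named were all 10 genes, up to 8 other integrin, activation and signalling genes of highest mean TPM, up to 4 ligands, up to 3 T-cell and 2 other markers per list, and list genes with 0 counts. Itgax, Itgb4, Itgb6, Itgb8, Tln2, Ptpn22, Sipa1, Rasgrp2, Zyx, Foxp3, Cd8a, Vcam1, Fn1 and Cdh1 lie outside that rule and were named after their values were seen. The same holds for Ikzf2, Nrp1 and Lrrc32.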

Additional observations from a re-analysis of the deposited data

Results flagged for a closer look

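In 9 of 83 sets of 4 values examined, 1 library stood apart from the other 3 by more than Dixon's 95% critical value, where chance gives about 1 in 20. Among the integrin genes, Itgb7 was at 1254 TPM in replicate 4 against 1154 to 1165 TPM in the others. Itgb1 was at 40.9 TPM in replicate 1 against 44.4 to 45.0 TPM, and Itgae at 0.198 TPM in replicate 2 against 0.230 to 0.236 TPM. These 3 gaps are small beside the levels, and that of Itgae rests on 9 counts.

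Among other genes, replicate 4 was high for Tgfb1 at 83.4 TPM, for the transcription factor gene Batf at 101 TPM and for the perforin gene Prf1 at 76.0 TPM, with the others at up to 75.0, 81.8 and 62.4 TPM. Icam2 was low in replicate 3 at 146 TPM against 155 to 156 TPM, and Ilk was high there at 159 TPM against 155 TPM. The erythroid gene Klf1 was at 0.461 TPM in replicate 2, on 7 counts, against at most 0.138 TPM.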

How the results depend on the processing

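Over the 12 pair ratios, 94 alternatives kept the direction and 2 reversed it. Another pseudocount, added alike to both genes, could not reverse a pair. Nor could leaving out 1 library, since all 4 shared each direction. Those agreements were fixed in advance, and only the changes of gene length could reverse a pair. The ratio of Itgal over Itgb2 reversed without length correction, to a log2 ratio of 0.20, and Itga4 over Itga6 reversed with the longest annotated transcript length, to -0.06. The lengths used give both reversals by construction. No pair test can pass the threshold with 4 libraries, so the tests say nothing of stability. Of the 10 genes' mean levels under the alternatives, 42 stayed within 1 SD and 18 did not. Leaving out 1 of 4 libraries cannot move a mean by 1 SD, so those alternatives were bound to stay. All 18 came from the longest transcript length or from TPM scaled over nuclear protein-coding genes only. Under these settings only Itgal and Itgae stayed, both with the longest transcript length. The number of genes more variable than the trend was 24 in edgeR, 5 without robust fitting, 10 at a mean CPM of 5 or more, 349 with no filter, and 108 as DESeq2 dispersion outliers. Leaving out 1 library gave 7 (without replicate 3) to 86 (without replicate 4), with 13 without replicate 2. The cause was not tested. The integrin genes called numbered 0 in each of these fits, of 9 tested at the CPM filter and without replicate 3 or 4 and of 10 otherwise. Their median ratio of highest to lowest library ran from 1.12 to 1.14 when 1 library was left out. Other integrin genes counted at 5 TPM in place of 1 TPM numbered 2 against 5. Depth limits Itgae most, with 9 to 15 counts per library. No paired analysis was possible because there is 1 group.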
